A study of Mus musculus with 4 samples.

Results

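The Dppa genes (developmental pluripotency associated) are a set of mouse genes named for their expression in the early embryo, in embryonic stem cells and in germ cells. The set held Dppa1, Dppa2, Dppa3, Dppa4 and Dppa5a, chosen by symbol, and all 5 were among the 23235 gene symbols listed. Their RNA was read in mouse embryos at the early blastocyst stage, lysed 96 hours after fertilization or, for clones, activation. One group was conceived by in vitro fertilization (IVF). The other was cloned by somatic cell nuclear transfer (SCNT), with a somatic nucleus put into an oocyte whose own nucleus is removed. There were 2 libraries a group, and 6 embryos were pooled in each. For IVF, Xist knockout oocytes with a 129S1/Svj background were fertilized with CAST/EiJ sperm that was wild type. For SCNT, donor nuclei came from embryonic fibroblasts with 1 Xist knockout allele, bred from Xist knockout 129S1/SvImj females and CAST/EiJ males, and B6D2F1/J mice gave the recipient oocytes. The oocyte, and with it any RNA stored in it, thus came from different strains in the groups, and effects of the oocyte strain and of nuclear transfer cannot be told apart. Per the file headers, the SCNT columns also carry the name of the histone demethylase gene Kdm4d, a name absent from the labels; no source used here says whether Kdm4d was given to the embryos.

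These genes share a name and a pattern of expression more than an ancestor. Dppa2 and Dppa4 are neighbouring paralogues whose nuclear proteins carry a SAP domain, bind DNA as a pair and hold promoters of developmental and germ line genes in a state that keeps DNA methylation away. They are also known to act upstream of Dux and the genes of the 2-cell stage. Dppa3, also called Stella or PGC7, encodes an oocyte-stored protein that protects the maternal genome from loss of DNA methylation after fertilization and restrains Uhrf1, the factor that guides Dnmt1 to replicating DNA. Dppa5a, also called Esg1, encodes an RNA-binding protein with a KH domain and is a standard marker of pluripotent cells, and Dppa1 is the least studied of them.

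Several Dppa genes have near-identical copies, so the sequences that show how close these copies are come first. In the GENCODE M21 transcripts (GRCm38, whereas the deposited values rest on mm9), the pseudogenes Dppa5b and Dppa5c had identical sequences, which aligned to Dppa5a over 299 columns with 96.3% identity. The stretch below starts at the first base of the Dppa5a coding sequence and runs for 100 bases, and capitals mark the 3 bases at which gene and pseudogene differ.
Dppa5a: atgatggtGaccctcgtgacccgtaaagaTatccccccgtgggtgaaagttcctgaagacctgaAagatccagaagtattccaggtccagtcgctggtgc
Dppa5b: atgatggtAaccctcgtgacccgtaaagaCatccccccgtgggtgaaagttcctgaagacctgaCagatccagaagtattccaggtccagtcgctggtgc
The processed pseudogene Dppa3-ps aligned to Dppa3 over 451 columns with 98.2% identity. The 120 bases from base 63 to base 182 of the Dppa3 coding sequence are shown with the matching stretch of the pseudogene, with capitals at the 5 differing bases.
Dppa3: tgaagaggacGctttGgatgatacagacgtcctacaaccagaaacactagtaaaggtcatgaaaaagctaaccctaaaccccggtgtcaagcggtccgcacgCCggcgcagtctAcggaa
Dppa3-ps: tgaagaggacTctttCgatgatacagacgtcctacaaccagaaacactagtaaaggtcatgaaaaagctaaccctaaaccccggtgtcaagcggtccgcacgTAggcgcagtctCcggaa

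A sequenced fragment from such a stretch can fit more than 1 place, and no source used here says how the authors divided such fragments. Of the 570 windows of 50 bases in the Dppa5a transcript, 220 (38.6%) occurred without a mismatch, on either strand, in a transcript of another gene. The share was 35.9% of 1430 windows for Dppa4, 29.1% of 2398 for Dppa2, 17.7% of 784 for Dppa3 and 6.23% of 1526 for Dppa1. The genes sharing windows were mostly numbered pseudogene models, 9 for Dppa5a, 7 for Dppa2, 3 for Dppa3, 2 for Dppa4 and 1 for Dppa1. In this respect the levels of Dppa5a, Dppa4 and Dppa2 are uncertain.

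Among these other genes, Pigp and Gm12171 had rows of their own in the deposited files. Pigp, which encodes a subunit of the enzyme that starts the assembly of GPI anchors, shared 70 windows with Dppa5a. It was listed at 101 and 183 FPKM in IVF libraries 1 and 2 and at 178 and 312 FPKM in SCNT libraries 1 and 2. The 4 libraries fell in the same order for Pigp as for Dppa5a, and Pigp stood at 2.53%, 2.39%, 2.81% and 3.21% of the Dppa5a level. Gm12171, a predicted gene, shared 95 windows with Dppa1 and was listed at 2.03 and 4.01 FPKM in IVF against 4.76 and 3.75 FPKM in SCNT, between 1.90% and 2.46% of the Dppa1 level in each library. In both cases the smaller row and the Dppa gene were lowest in IVF library 1. Whether shared fragments link these rows was not tested.

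The values were taken to be FPKM, fragments scaled to transcript length and to the mapped total, a unit inferred from the tools named and from the values. The absolute depth is unknown, so no counting error can be given. Genes listed at 0 numbered 6527 and 6505 in the libraries numbered 1 and 5716 and 5212 in those numbered 2, so the libraries differed by number as well as by group. Separate parents or days for the replicates are not stated in the labels, so the spread behind each p-value may be technical. Of the lineage markers, Pou5f1 (112 to 154 FPKM) of the inner cell mass, Cdx2 (20.0 to 36.6 FPKM) of trophectoderm and Gata6 (74.9 to 133 FPKM) of primitive endoderm were present in all 4 libraries. Other primitive endoderm markers were low, with Foxa2 at most 0.391 FPKM and Sox7 at most 1.36 FPKM. The presence of these markers does not check the labelled stage. Xist, the gene knocked out on an allele, ranged from 1.09 to 13.9 FPKM, with both extremes in IVF, and does not check the genotype, since the part removed is not stated. In bulk samples such as these, fewer cells of a type and less RNA per cell cannot be told apart.

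Dppa5a and Dppa3 were among the most abundant RNAs of these blastocysts, and Dppa1, Dppa2 and Dppa4 stood an order of magnitude lower. Without the genes of microRNAs and small nucleolar RNAs, 22506 genes were ranked in each library. Dppa5a ranked 20 and 8 in IVF, and 9 and 3 in SCNT. Dppa3 ranked 21 and 31 in IVF and 33 and 35 in SCNT. Together they made up 0.967% and 1.25% of the summed FPKM of the ranked genes in IVF and 1.13% and 1.46% in SCNT. The ranks of Dppa1, Dppa2 and Dppa4 lay between 559 and 1073, still within the upper part of the genes expressed.

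**Figure D1:**
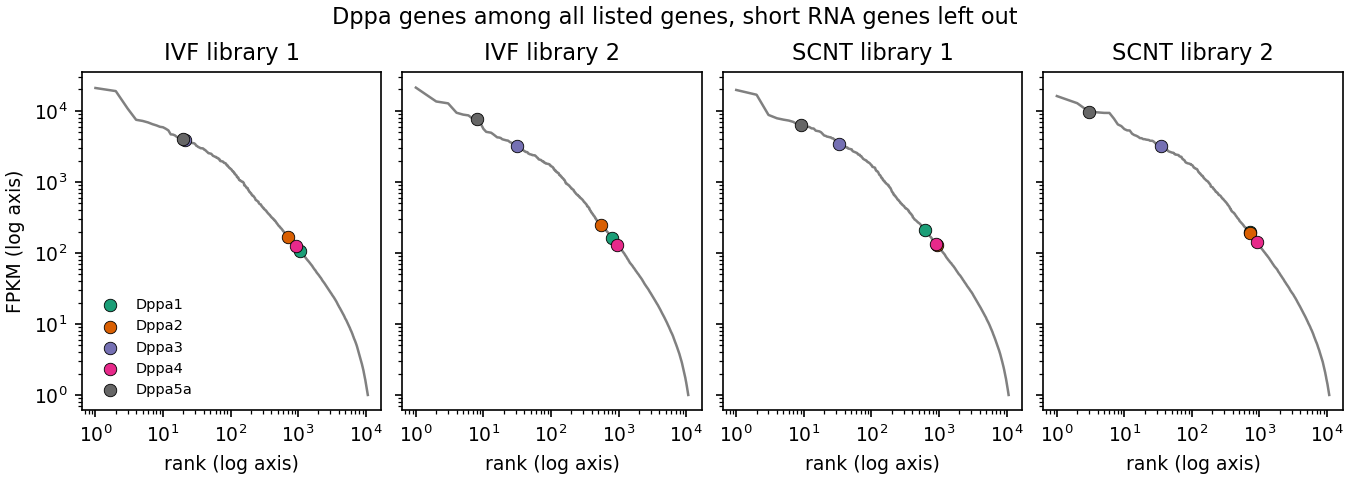
FPKM of every ranked gene (grey line, both axes logarithmic) against its rank in each of the 4 libraries, with the 5 Dppa genes as coloured points. Dppa5a and Dppa3 sit at ranks 3 to 35 and the other Dppa genes at ranks 559 to 1073. In IVF library 1 the points of Dppa5a and Dppa3 lie on top of each other, as do those of Dppa2 and Dppa4 in SCNT library 1 and of Dppa1 and Dppa2 in SCNT library 2.

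By group mean, Dppa5a was the highest of the set in both groups and Dppa3 the next. The ratio of Dppa5a to Dppa3 was 1.03 in IVF library 1, 2.39 in IVF library 2, 1.84 in SCNT library 1 and 3.09 in SCNT library 2, so the genes were level only in the first of these. The order of the 3 lower genes changed between libraries. In IVF it was Dppa2 above Dppa4 above Dppa1 in library 1 and Dppa2 above Dppa1 above Dppa4 in library 2. Dppa1 led them in both SCNT libraries.

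**Figure D2:**
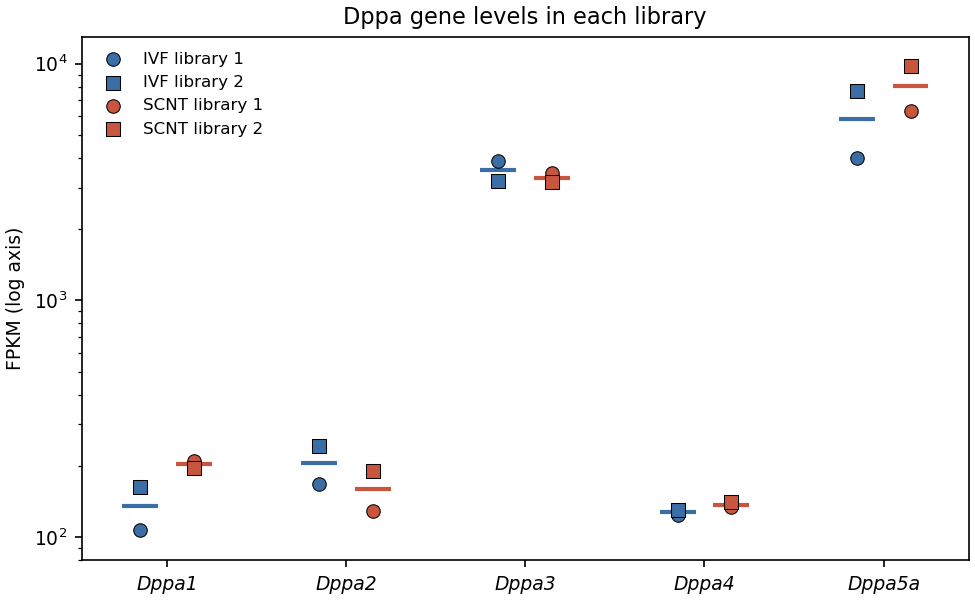
FPKM (logarithmic axis) of the 5 Dppa genes in each library, with circles for libraries numbered 1, squares for libraries numbered 2 and a bar at each group's mean. Dppa4 and Dppa3 stay close together over all 4 libraries, while Dppa5a and Dppa2 are higher in the library numbered 2 of both groups.

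None of the 5 genes differed between SCNT and IVF at a limma adjusted p under 0.05, where 14 of 11039 tested genes (0.127%) did. None had an unadjusted p under 0.05 either, against 7.09% of all tested genes. Both SCNT libraries lay above both IVF libraries for 2 of the 5, Dppa1 and Dppa4, against 18.3% of all tested genes, and for none did both lie below (15.1% of all). The other 3 overlapped. Each difference below is SCNT minus IVF in log2(FPKM + 1), which understates changes of genes at low FPKM.

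**Figure D3:**
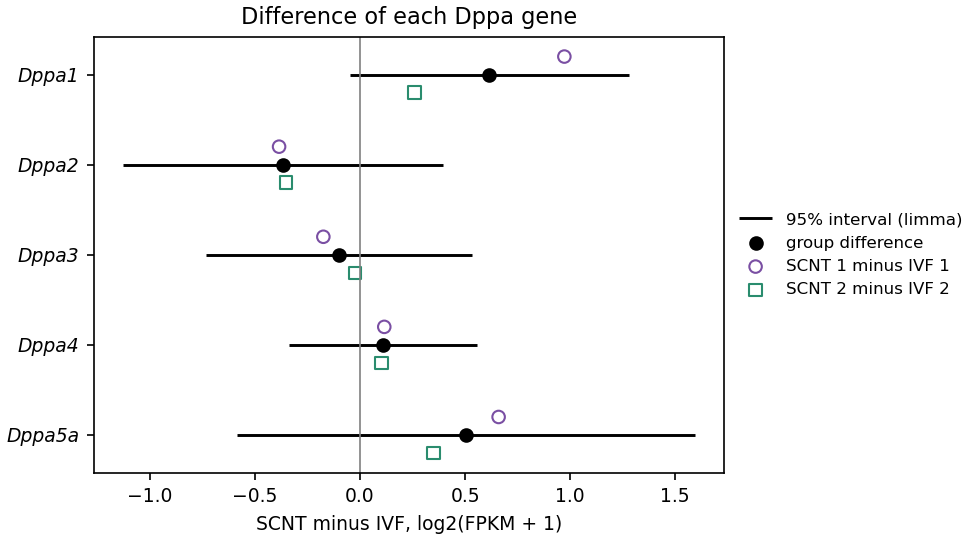
Difference between SCNT and IVF on the log2(FPKM + 1) scale for each Dppa gene (filled point) with its 95% interval from limma (line), and the differences within libraries numbered 1 (open circle) and 2 (open square). All 5 intervals include 0. Within each gene both open symbols lie on the same side of 0. The share of all tested genes that do so was not computed, so this does not set the Dppa genes apart. The labels do not say that equal numbers mark pairs.

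Dppa2 and Dppa4, the DNA-binding pair, lie next to each other on chromosome 16. Dppa4 was the steadiest gene of the set. It stood at 124 and 131 FPKM after IVF, and 134 and 141 FPKM after SCNT, so the groups did not overlap but lay within a narrow band. The means were 127 ± 4.78 and 137 ± 4.30 FPKM (SD, n = 2 each), a difference of 0.11 ± 0.17 (SE) with a 95% interval of -0.34 to 0.55 (limma adjusted p = 0.9996). The libraries of a group differed by 0.08 in IVF and 0.06 in SCNT, and 84.9% and 85.7% of all tested genes were at least as far apart in those replicates.

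Dppa2 stood at 168 and 243 FPKM in IVF against 129 and 191 FPKM in SCNT. In each group library 2 was the higher, by 0.53 in IVF and 0.56 in SCNT, which is more than the group difference. SCNT was lower within each number, by about the same amount, with -0.39 between the libraries numbered 1 and -0.35 between those numbered 2. Over the groups the means were 206 ± 53.0 and 160 ± 43.7 FPKM (SD, n = 2 each), and the difference was -0.37 ± 0.30 (SE) with a 95% interval of -1.13 to 0.39 (limma adjusted p = 0.970). Because of the difference by number, the value moved to -0.10 without IVF library 2 and to -0.09 without SCNT library 1.

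The ratio of Dppa2 to Dppa4 within a library was 1.36 and 1.86 in IVF and 0.957 and 1.36 in SCNT. The lower IVF value and the higher SCNT value were nearly equal. On the log2 scale the ratio was 0.48 lower in SCNT, 0.50 lower between the libraries numbered 1 and 0.45 lower between those numbered 2. An exact two-sided permutation test gave p = 0.333, the smallest that 2 against 2 libraries can give. On either side of the pair the nearest listed genes were Pvrl3, a cell adhesion gene also named Nectin3, and Morc1, a germ line gene that represses transposons. Pvrl3 was at 0.899 to 1.29 FPKM in all libraries. Morc1 was at 2.48 and 2.17 FPKM after IVF, and 3.88 and 4.84 FPKM after SCNT, without overlap, and did not pass (difference 0.68 ± 0.19 SE, limma adjusted p = 0.516). Dppa2 and Morc1, neighbours on the chromosome, thus had estimates of opposite sign.

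Genes placed downstream of Dppa2 and Dppa4 in other work fall into a 2-cell stage list and a germ line list. Of 23 listed 2-cell stage genes, 17 had rows, 7 of these were at 0 in all 4 libraries and 3 passed the filter on low values. Dux, the transcription factor that turns on this programme, was listed at 0.149 and 0.458 FPKM in IVF against 0.0722 and 0.660 FPKM in SCNT. No Zscan4 gene listed exceeded 0.0247 FPKM in any library. The 3 tested members were B020004J07Rik, at 3.23 to 3.82 FPKM in all libraries, Tdpoz2, at 0.987 to 2.48 FPKM, and Tdpoz4, at 9.29 FPKM in IVF library 2 and at most 0.468 FPKM in the others. As listed, Dppa2 and Dppa4 were at over 100 FPKM in both groups, with the listed Zscan4 genes near or at 0. Shared windows were not searched for the 2-cell stage genes, so the bearing of shared fragments on their values is unknown.

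The other list held 8 germ line and developmental genes that are candidates for dependence on Dppa2 and Dppa4, with the link better known for Mael, Syce1 and Nkx2-5 than for the rest. Of its 7 tested members none passed the limma test over all genes, and 4 of the 7 had an unadjusted p under 0.05, all of them lower in SCNT, where 7.09% of all tested genes had such a p in either direction. Both SCNT libraries lay below both IVF libraries for 4 of the 7, beside 15.1% of all tested genes. The median over the 7 was -0.74, beside 0.01 over all tested genes, and it was -0.46 between the libraries numbered 1 and -1.03 between those numbered 2. Without any filter on low values, where Nkx2-5 enters, the median was -0.34. It was -0.45 with a pseudocount of 5 and -0.48 without IVF library 2. Tuba3a can share fragments with its near-identical copy Tuba3b. Dazl passed the filter on low values only through IVF, with a mean of 0.418 FPKM in SCNT. Of the better known genes besides Mael, Syce1 had a difference of 0.08 and Nkx2-5 was under the filter. The list was chosen with earlier results of these data known, so its shares do not test dependence on Dppa2 and Dppa4.

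Mael, which encodes the piRNA pathway protein Maelstrom, was at 6.34 and 7.18 FPKM after IVF, and 2.22 and 1.81 FPKM after SCNT (difference -1.37, limma adjusted p = 0.203). Dazl, an RNA-binding protein of germ cells, was at 2.22 and 2.56 FPKM in IVF against 0.456 and 0.380 FPKM in SCNT (difference -1.26, limma adjusted p = 0.231). Hormad1, a meiotic chromosome axis gene, was at 5.59 and 11.0 FPKM after IVF, and 2.95 and 2.56 FPKM after SCNT. Tuba3a, a testis-type alpha-tubulin gene, was at 6.63 and 9.95 FPKM in IVF against 4.55 and 4.36 FPKM in SCNT. In these 4 genes the SCNT libraries were close to each other and below both IVF libraries. The remaining tested members went the other way by small amounts, namely Syce1 (0.08), Tdrkh (0.18) and Sycp3 (0.25), the last a meiotic gene at 44.4 to 84.2 FPKM.

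**Figure D4:**
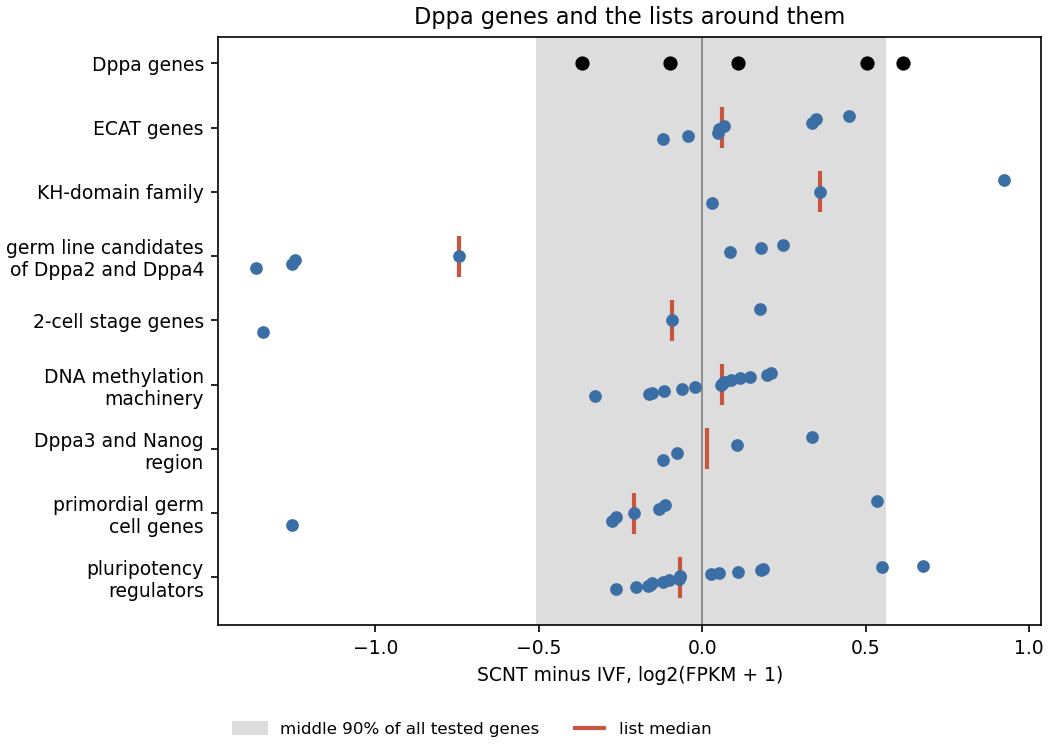
Difference between SCNT and IVF on the log2(FPKM + 1) scale for each tested gene of 8 lists (blue points, red bar at the list median) and for the 5 Dppa genes (black). The grey band holds the middle 90% of all tested genes, -0.51 to 0.56. The 4 germ line candidates that were lower in SCNT lie outside it on the left, as does Tdpoz4 (-1.34) of the 2-cell stage list. Outside it on the right lie Dppa1 (0.62), Ooep (0.92) and Tdgf1 (0.67).

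Dppa3 stood at 3890 and 3205 FPKM after IVF, and 3446 and 3150 FPKM after SCNT. IVF library 1 was the highest and the other 3 lay close together, with the groups overlapping. The means were 3548 ± 484 and 3298 ± 209 FPKM (SD, n = 2 each), a ratio of 0.930, and the difference was -0.10 ± 0.25 (SE) with a 95% interval of -0.73 to 0.53 (limma adjusted p = 0.9996). Leaving out IVF library 1 turned the difference to 0.040, so its direction rests on that library.

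Since Dppa3 RNA is stored in the oocyte, oocyte genes are given beside it. The 12 oocyte markers summed to 18.9 and 17.7 FPKM in IVF and to 11.0 and 13.9 FPKM in SCNT. The zona pellucida genes Zp1, Zp2 and Zp3 did not exceed 1.35 FPKM in any library, and Gdf9 did not exceed 1.06 FPKM. The group gap in the sum lay mainly in Uchl1, an enzyme gene that other cells also express, at 7.63 and 11.3 FPKM in IVF against 2.01 and 5.72 FPKM in SCNT. Of the 12 markers 4 passed the filter on low values, Uchl1 and also Oas1d (2.33 to 4.81 FPKM), H1foo (0.824 to 2.12 FPKM) and Figla (0.669 to 1.58 FPKM). The part of stored oocyte RNA in the Dppa3 level was not tested.

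In its chromosomal region Dppa3 lies between Gdf3, a growth factor gene, and Nanog, a core pluripotency factor, on chromosome 6. Nanog was at 107 and 156 FPKM after IVF, and 104 and 136 FPKM after SCNT, overlapping. Gdf3 was at 14.2 and 12.8 FPKM in IVF against 16.1 and 18.7 FPKM in SCNT, without overlap, and did not pass (difference 0.34, limma adjusted p = 0.864). Over the 4 tested neighbours in the wider region, Nanog, Gdf3, Slc2a3 and Foxj2, the median difference was 0.01 and none had an unadjusted p under 0.05.

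Genes of DNA methylation, the process in which Dppa3 acts, gave no call. Of 15 listed, 14 were tested, none passed the limma test and none had an unadjusted p under 0.05. There were 8 higher and 6 lower estimates, and the median was 0.06. Uhrf1, the target that Dppa3 restrains, was at 52.4 and 31.3 FPKM after IVF, and 54.5 and 27.5 FPKM after SCNT, so it differed by library number far more than by group. Dnmt1 was at 14.2 and 13.5 FPKM in IVF against 16.4 and 15.7 FPKM in SCNT, and Tet2, an enzyme that oxidizes methylated cytosine, was at 19.9 and 23.7 FPKM after IVF, and 18.3 and 15.9 FPKM after SCNT. Tet1 was at 6.91 and 8.30 FPKM in IVF against 8.62 and 9.25 FPKM in SCNT. Dnmt1, Tet2 and Tet1 were without overlap and did not pass (differences 0.20, -0.33 and 0.21, limma adjusted p = 0.981, 0.891 and 0.986). SCNT lay wholly above IVF for 2 of the 14 and wholly below for 1, against 18.3% and 15.1% of all tested genes.

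Dppa3 is also used to mark primordial germ cells, the founders of the germ line. Of 10 listed genes of that lineage 7 were tested, 1 estimate was higher and 6 were lower, and the median was -0.21, with a range of -0.43 to -0.05 when each library was left out in turn. Dazl was the only one with an unadjusted p under 0.05, and it is also in the germ line list. The higher one was Dnd1, at 2.57 and 1.84 FPKM in IVF against 4.17 and 3.11 FPKM in SCNT, without overlap. Dnd1 did not pass (difference 0.53, limma adjusted p = 0.759). SCNT lay wholly above IVF for 1 of the 7 and wholly below for 1, against 18.3% and 15.1% of all tested genes. Prdm1, an early determinant of these cells, did not exceed 0.106 FPKM in any library, and Kit and Nanos3 stayed under 1 FPKM.

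Dppa5a stood at 4015 and 7645 FPKM in IVF against 6342 and 9736 FPKM in SCNT. Library 2 exceeded library 1 in both groups, by 0.93 in IVF and 0.62 in SCNT, and the groups overlapped. Of all tested genes, 3.89% were as far apart between the IVF libraries, and 10.3% between the SCNT libraries. The means were 5830 ± 2567 and 8039 ± 2399 FPKM (SD, n = 2 each), a ratio of 1.38. The difference was 0.50 ± 0.43 (SE) with a 95% interval of -0.59 to 1.60 (limma adjusted p = 0.986), 0.66 between the libraries numbered 1 and 0.35 between those numbered 2. It moved to 0.040 without IVF library 1 and to 0.97 without IVF library 2, so its size was not fixed by these libraries.

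The KH-domain relatives of Dppa5a include Ooep, which lies next to it on chromosome 9 and encodes a protein of the subcortical maternal complex of the egg. Ooep was at 21.1 and 29.4 FPKM after IVF, and 35.0 and 66.3 FPKM after SCNT, with both SCNT libraries above both IVF libraries. The difference of 0.92 had an unadjusted p of 0.0480 and did not pass over all genes (limma adjusted p = 0.693). It was 0.47 without SCNT library 2 and 1.38 without SCNT library 1. Like Dppa5a, Ooep was higher in library 2 of each group. Khdc1a was at 7.54 and 7.94 FPKM in IVF against 10.9 and 9.60 FPKM in SCNT, also without overlap (difference 0.36, limma adjusted p = 0.827). Khdc1b was near 1 FPKM throughout. On the other side of Dppa5a, the nearest listed gene Gsta2 stayed under 1 FPKM in all libraries. The other 6 listed genes of the maternal complex, such as Tle6 and Padi6, gave 3 tested members with a median of 0.10 and no unadjusted p under 0.05.

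Dppa1 had the largest estimate of the 5. It stood at 107 and 163 FPKM after IVF, and 211 and 195 FPKM after SCNT, so both SCNT libraries were above both IVF libraries. The means were 135 ± 39.7 and 203 ± 11.0 FPKM (SD, n = 2 each), a ratio of 1.50. The difference was 0.62 ± 0.26 (SE) with a 95% interval of -0.05 to 1.28, and it did not pass (unadjusted p = 0.0624, limma adjusted p = 0.754). It was 0.97 between the libraries numbered 1 and 0.26 between those numbered 2, and 0.31 without IVF library 1. Beside it, the 12 inner cell mass and epiblast markers summed to 719 and 716 FPKM in IVF and to 884 and 849 FPKM in SCNT. Their median difference was 0.26, with 8 estimates higher and 4 lower. At an unadjusted p under 0.05, 2 were higher, Spp1 (0.96) and Tdh (0.76), and 0 were lower. Sox2 was at 8.03 to 10.1 FPKM over all libraries. Markers of the other lineages moved too. The 17 trophectoderm markers summed to 5438 and 4862 FPKM in IVF against 7598 and 5444 FPKM in SCNT, with a median difference of 0.40. At an unadjusted p under 0.05, 6 were higher, among them Krt19 (2.04) and Elf5 (1.63), and 1 was lower, Lrp2 (-0.87). Gata3 (0.09), Krt8 (0.10) and Tead4 (-0.08) of the same list were near 0. The 13 primitive endoderm markers summed to 429 and 322 FPKM in IVF against 446 and 390 FPKM in SCNT, and 11 were tested, with a median of 0.30 and 4 higher at an unadjusted p under 0.05. Over all tested genes the median difference was 0.01, and 7.09% had an unadjusted p under 0.05 in either direction. None of these markers passed the limma test over all genes, and the part of such marker shifts in the Dppa1 values was not tested.

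The ratio of Dppa1 to Dppa2 within a library had the largest difference of the 4 ratios computed. This had to be so, since Dppa1 had the highest estimate of the set (0.62) and Dppa2 the lowest (-0.37), and it is no separate result. Dppa1 was at 0.635 and 0.670 times the level of Dppa2 in IVF, but at 1.64 and 1.03 times in SCNT. On the log2 scale the ratio was 0.98 higher in SCNT, 1.36 between the libraries numbered 1 and 0.61 between those numbered 2. The exact permutation p was 0.333, the smallest possible here, for 3 of the 4 ratios. For the ratio of Dppa5a to Dppa3, which overlapped, it was 0.667, and adjustment over the 4 could bring none below its raw value. Dppa1 against Dppa4 gave 0.863 and 1.25 in IVF and 1.57 and 1.39 in SCNT.

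Of the 5 genes, 1 matched the table of RefSeq promoters used, Dppa1, whose promoter is shown for its content of methylation sites. The sequence, from RefSeq on GRCm38.p6, runs from 250 bases before to 50 bases after the start of transcription on the minus strand of chromosome 11, at chr11:46629225-46629524, and capitals mark CG dinucleotides, the sites of DNA methylation.
Dppa1 promoter: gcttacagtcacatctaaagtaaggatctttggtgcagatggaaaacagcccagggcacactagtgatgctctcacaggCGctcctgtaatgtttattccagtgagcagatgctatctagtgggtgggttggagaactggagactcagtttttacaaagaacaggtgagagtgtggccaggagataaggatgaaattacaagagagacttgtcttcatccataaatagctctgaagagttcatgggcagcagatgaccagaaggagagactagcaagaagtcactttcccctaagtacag
It holds 1 CG dinucleotide, beside a median of 7 over 32851 promoters of the same length, of which 14.1% hold as few. Its GC content was 45.7%, beside a median of 52.7%. On neither strand did it contain the letters TATAAA, found in 13.6% of the promoters, the octamer ATGCAAAT, found in 1.74%, or CACGTG, found in 7.15%. The nearest listed genes on either side of Dppa1 were BC053393 and Timd2. BC053393 was at 224 and 324 FPKM in IVF against 290 and 371 FPKM in SCNT, and Timd2, a receptor for ferritin, was at 238 and 241 FPKM after IVF, and 141 and 230 FPKM after SCNT. These neighbours were at a level like that of Dppa1, and Timd2 had both SCNT values below both IVF values.

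Other genes known from the same screens of embryonic stem cells, the ECAT genes, and the regulators of pluripotency gave the setting. Of 10 such genes that are not Dppa genes, with Zfp42 and Utf1 added to the list, 8 were tested, none passed the limma test and none had an unadjusted p under 0.05. There were 6 higher and 2 lower estimates with a median of 0.06. Fbxo15, a ubiquitin ligase subunit gene, was at 256 and 306 FPKM in IVF against 287 and 257 FPKM in SCNT, and Zfp42, also called Rex1, held between 182 and 191 FPKM in all 4 libraries. Utf1, a chromatin gene of pluripotent cells, and Sox15, a relative of Sox2, had estimates of 0.45 and 0.35 (limma adjusted p = 0.923 and 0.840), and that of Utf1 was 0.15 without SCNT library 1 and 0.75 without SCNT library 2. Among 17 tested pluripotency regulators 7 estimates were higher and 10 lower, with a median of -0.07 and no unadjusted p under 0.05. The Dppa genes had estimates from -0.37 to 0.62 with a median of 0.11. The range was -0.12 to 0.45 for the ECAT genes. For the pluripotency regulators it was -0.26 (Prdm14) to 0.67 (Tdgf1).

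Genes whose pattern over the 4 libraries was most like that of each Dppa gene were found by the Euclidean distance between log2(FPKM + 1) profiles centred on their means, over 9815 genes compared. The nearest 3 were Cmtm8, Hsbp1l1 and Hist1h1c for Dppa1, Obfc2a, H2-Q4 and Cryab for Dppa2, and Sfmbt1, Dsp and Strbp for Dppa3. For Dppa4 they were Oxsm, Spint2 and Acp1, and for Dppa5a they were Pycard, F2rl1 and Tmem126a. Distances ran from 0.0076 for Obfc2a to 0.104 for Tmem126a. With only 4 libraries such likeness is common, and between 207 and 587 genes correlated with each Dppa gene at r over 0.95. No Dppa gene was among the nearest 3 of another.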

How the data were processed

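Whole early blastocysts were lysed, and cDNA was made and amplified with the SMARTer Ultra Low Input kit, per the labels' protocols. Tools named in the submitters' processing notes were Cufflinks 2.2.1, Bowtie2 2.1.0 and TopHat2 2.0.14, with the mm9 build. The deposited values, 1 per gene symbol and library, were taken to be FPKM, inferred from Cufflinks and the values; no source used here gives the annotation, strand or scaling. Amplification from few cells adds noise.

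Groups came from sample titles. Genes with a mean of at least 1 FPKM were tested with limma 3.58.1 (R 4.3.3) on log2(FPKM + 1), with a trended prior and a single term for group, and Benjamini-Hochberg adjustment over all 11039 tested genes, and the script was tested on simulated data. Intervals are 95% and not adjusted. Members, lists and tests were chosen with earlier results of these data known. Named were all members, up to 4 genes of each list by smallest unadjusted p, nearest listed neighbours, and the 3 genes with the nearest profile. Further genes, such as Dux, Uhrf1, Zfp42, Pigp and Gm12171, were named for their role or after their values were seen. Copies were searched in windows of 50 bases of the longest coding transcript of each gene. Alternatives changed the pseudocount, filter, scaling, prior, block and libraries used.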

Additional observations from a re-analysis of the deposited data

How the results depend on the processing

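None of the 5 Dppa genes passed at a limma adjusted p under 0.05 under any of 14 alternatives, where the lowest adjusted p was 0.171, for Dppa5a with the replicate number as a block. Directions held except for Dppa3. Leaving out each library in turn gave 0.31 to 0.92 for Dppa1, -0.65 to -0.09 for Dppa2, -0.24 to 0.040 for Dppa3, 0.07 to 0.15 for Dppa4 and 0.040 to 0.97 for Dppa5a. The number of genes called over the whole table was 14, and it rose to between 36 and 43 when a library was left out, with the lone library of a group assumed to vary like the other group. It was 9 with short RNA genes left out and the libraries rescaled, where 10837 genes were tested. The share of summed FPKM in short RNA genes was 12.4% and 12.2% in IVF and 9.50% and 9.73% in SCNT. The scalings tried moved the median of all genes by at most 0.05, but some members moved more. With quantile normalization Dppa3 went from -0.10 to -0.24, Dppa5a from 0.50 to 0.63 and Dppa2 from -0.37 to -0.45. Dppa1 and Dppa4 were then at 0.58 and 0.08, beside 0.62 and 0.11 in the main fit.

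The labels number the libraries 1 and 2 in both groups without saying what a number shares, and deviations of the libraries numbered 1 from their group means correlated across genes with r = 0.31. With the replicate block 20 genes were called, and Dppa1, Dppa2 and Dppa5a had unadjusted p of 0.0342, 0.0127 and 0.0100 (limma adjusted p = 0.264, 0.187 and 0.171), where 16.6% of all tested genes had an unadjusted p under 0.05. The block left the estimates as they were, at 0.62, -0.37 and 0.50. The germ line list kept a negative median under each alternative, nearest to 0 at -0.34 without a filter. Its genes were chosen with earlier results of these data known, and the alternatives reused the same libraries. The kept sign is thus no further support for a lower level in SCNT. None of Mael, Dazl, Tuba3a and Hormad1 passed, with limma adjusted p from 0.079 upward. Medians of lists near 0 changed sign over the left-out libraries, with -0.21 to 0.21 for DNA methylation, -0.06 to 0.18 for the Dppa3 and Nanog region, -0.13 to 0.08 for pluripotency regulators and -0.15 to 0.14 for the maternal complex, while that of the ECAT genes ran from 0.07 to 0.23. These alternatives for lists were added after the data were seen. The missing read counts leave the counting error unknown, which bears most on genes of a few FPKM such as Dazl.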
